A study of Homo sapiens with 6 samples.

Results

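The HOX gene clusters were examined in ATAC-seq peak lists of RKO cells, a colon cancer cell line. The members were the protein-coding RefSeq genes whose symbol is HOXA, HOXB, HOXC or HOXD followed by a number, 39 of 20037 protein-coding genes of GRCh38.p14, and the peaks whose midpoint lay between 10 kb before the first and 10 kb after the last gene of each cluster. Overlapping peaks (1 bp or more) of the 6 lists were merged, which gave 96 HOX regions of 102784 in the whole series. The 6 samples were 3 treated with 0.2 µM aphidicolin (APH, an inhibitor of the replicative DNA polymerases) for 16 h and 3 treated with DMSO, the solvent control, and the question was whether this low replication stress changes chromatin accessibility. All cells were of the same line, which was grown at low oxygen, and no genetic change separates the groups.

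HOX genes encode homeodomain transcription factors that give cells a position along the body axis. They lie in 4 clusters in which all genes point the same way, and their order from the 3′ end (paralogue 1) to the 5′ end (paralogue 13) mirrors the order in which they are used from head to tail. Polycomb complexes keep unused parts of a cluster closed, Trithorax complexes keep used parts open, and adult gut epithelium and lines derived from it retain a pattern of active HOX genes. ATAC-seq marks open chromatin through the insertion of adapters by the Tn5 transposase. The value of a peak is the mean over the peak of the authors' signal map, in deposited signal units. A lower value can come from fewer open cells or from less opening in each cell, and these cannot be told apart in bulk samples.

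The HOXA window spanned chr7:27082993-27210091 with 11 genes on the minus strand. The HOXB window, chr17:48518526-48738750, held 10 genes on the minus strand. HOXC (chr12:53928831-54066030) and HOXD (chr2:176077487-176200907) held 9 genes each on the plus strand. RefSeq promoter sequences of GRCh38.p14, from 250 bases before to 50 bases after the start, were at hand for 18 of the 39 genes at the start used here. They are shown for HOXA9 and HOXA10, with a peak that was lower in APH, and for HOXA2, HOXA6 and HOXD10, with no peak within 1 kb of the start in any sample. Capitals mark the CCAAT motif or its reverse complement ATTGG.
HOXA9, chr7:27165488-27165787, minus strand: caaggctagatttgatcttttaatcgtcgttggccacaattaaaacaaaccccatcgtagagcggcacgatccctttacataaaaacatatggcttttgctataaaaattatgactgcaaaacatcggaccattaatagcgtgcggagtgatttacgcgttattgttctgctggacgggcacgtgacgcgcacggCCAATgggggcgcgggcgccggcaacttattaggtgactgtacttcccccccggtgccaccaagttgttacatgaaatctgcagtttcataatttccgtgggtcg
HOXA10, chr7:27179812-27180111, minus strand: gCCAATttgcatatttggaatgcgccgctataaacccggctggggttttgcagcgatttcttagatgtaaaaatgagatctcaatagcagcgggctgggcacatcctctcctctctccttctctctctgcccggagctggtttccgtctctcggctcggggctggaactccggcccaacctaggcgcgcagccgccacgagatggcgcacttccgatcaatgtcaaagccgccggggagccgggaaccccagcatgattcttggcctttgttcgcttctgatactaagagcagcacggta
HOXA2, chr7:27102634-27102933, minus strand: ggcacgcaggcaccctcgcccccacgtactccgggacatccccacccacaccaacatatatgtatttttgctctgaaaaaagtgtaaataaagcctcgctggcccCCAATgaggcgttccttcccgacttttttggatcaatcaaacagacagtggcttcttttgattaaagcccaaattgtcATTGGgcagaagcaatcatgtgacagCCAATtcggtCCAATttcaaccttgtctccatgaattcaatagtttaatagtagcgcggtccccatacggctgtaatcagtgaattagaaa
HOXA6, chr7:27147725-27148024, minus strand: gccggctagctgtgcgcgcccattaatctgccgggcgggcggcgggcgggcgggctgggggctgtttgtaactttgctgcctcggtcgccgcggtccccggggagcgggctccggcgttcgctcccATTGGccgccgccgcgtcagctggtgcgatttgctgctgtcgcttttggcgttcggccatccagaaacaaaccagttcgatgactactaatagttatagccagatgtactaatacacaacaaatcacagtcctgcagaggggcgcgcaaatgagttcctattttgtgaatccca
HOXD10, chr2:176116528-176116827, plus strand: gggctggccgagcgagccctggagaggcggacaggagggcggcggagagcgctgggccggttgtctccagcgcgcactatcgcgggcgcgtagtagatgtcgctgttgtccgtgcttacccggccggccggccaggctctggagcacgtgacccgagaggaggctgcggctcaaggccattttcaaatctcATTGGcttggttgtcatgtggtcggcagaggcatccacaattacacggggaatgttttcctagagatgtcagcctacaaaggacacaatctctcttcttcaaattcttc

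Both strands of these stretches were searched for 3 motifs and for CG pairs. The CCAAT motif was found in 15 of the 18 HOX promoters (HOXC4 and HOXC5 share 1 stretch), against 37.2% of the 13819 protein-coding promoters of the same length. It was found in 8 of the 9 with a peak in every sample and in 7 of the 8 without a peak, so it did not follow the presence of a peak. The motif GGGCGG, which also holds a CG pair, was found in 8 of 18, against 58.5% of all promoters. The motif TATAAA was found in 3 of 18, against 10.0%. The HOX promoters without a peak had a higher median of CG pairs than all promoters without a peak. These 8 held a median of 17 CG pairs, whereas the 4928 protein-coding promoters without a peak held a median of 7. Over all 13819 promoters, with or without a peak, the median was 22. The 9 with a peak in every sample held a median of 22, against 27 over the 8298 such promoters. The lowest was HOXD4 with 4 CG pairs and no peak, and the highest was HOXA13 with 44 and a peak in every sample. A match of letters is a description and not a binding site.

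The identity of the cells was checked with peaks within 1 kb of marker starts. EPCAM and the neighbouring keratin genes KRT8 and KRT18, which are epithelial, and CDX2, the intestinal homeobox gene, had a peak in all 6 samples. CDH1, KRT19, VIL1 and CDX1 had none in any sample, and the intestinal keratin KRT20 had a weak peak in APH 1 (26) and APH 2 (24.8) and none in the other samples. The epithelial list thus held 3 of 5 and the intestinal list 1 of 4 in every sample, where KRT8 and KRT18 had the same value in each sample. The leukocyte list held 0 of 4, the endothelial gene CDH5 had no peak, and of 3 fibroblast genes COL1A1 had a peak in every sample. The samples held 64511 to 84510 peaks. The mean value over all peaks was 69.4 to 73.0 in APH and 78.3 to 85.2 in DMSO. Each mean is over a sample's own list, so it also moves with the number of peaks listed. The depth of the libraries is unknown, and a difference in depth cannot be told apart from a general change in signal.

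Peaks were called at the starts of some HOX genes and not of others. A peak within 1 kb of the start was found in all 6 samples at 21 of 39 HOX genes, in some samples at 5 and in none at 13, that is at 53.8% in every sample, against 56.5% of the 19675 protein-coding genes of known strand. HOXA had the most, with 8 of 11 genes, followed by HOXC with 6 of 9 and HOXB with 5 of 10, and HOXD had 2 of 9. HOXC4, HOXC5 and HOXC6 share 1 RefSeq start and therefore 1 value.

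By position in the clusters, of the 8 anterior genes (paralogues 1 to 3) 2 had a peak in every sample and 5 had none, of the 15 central genes (paralogues 4 to 8) 9 had one in every sample, and of the 16 posterior genes (paralogues 9 to 13) 10 did. The 13 genes without a peak were HOXA2, HOXA3, HOXA6, HOXB1, HOXB3, HOXB8, HOXC9, HOXC12, HOXD3, HOXD4, HOXD10, HOXD11 and HOXD12. Some have a peak at another RefSeq start. HOXA3 had a peak in all 6 samples at 1 of its 6 other starts (position 27150950 of chromosome 7), and HOXD3 at its other start (position 176157307 of chromosome 2). The 5 genes with a peak in some samples were HOXB2 (2 samples), HOXD13 (3 samples) and HOXB5, HOXC8 and HOXD8 (5 samples each). The strongest promoter values of these 5 were 56.0 for HOXB2, 24.6 for HOXD13, 75.1 for HOXB5, 59.0 for HOXC8 and 44.6 for HOXD8.

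The level at the start did not follow paralogue order in the same way in the 4 clusters. Over all 39 genes, with a gene without a peak set at 0, Spearman's rho between paralogue number and promoter value was 0.036 ± 0.036 in the DMSO samples and -0.0095 ± 0.058 in the APH samples (SD, n = 3). The difference of -0.046 was no larger than the spread among samples (two-sided exact permutation p = 0.3). It was -0.12 over the genes with a peak in all 6 samples and -0.079 without APH 2, with an exact permutation p of 0.1 for each, and moved toward 0 in other settings, to -0.024 within 2 kb of the start and -0.025 without DMSO 1. In HOXB rho was positive, with 0.50 ± 0.15 (SD, n = 3) in DMSO and 0.48 ± 0.11 in APH. The values did not rise up to the 5′ end, however. HOXB13 at that end had the lowest mean (50.2) of the 5 HOXB genes with a peak in every sample. Toward the 3′ end, HOXB1 and HOXB3 were set at 0. In HOXC the values tended to fall toward the 5′ end, with rho of -0.67 ± 0.12 and -0.63 ± 0.10. HOXA gave 0.11 ± 0.10 and 0.061 ± 0.075, and HOXD -0.31 ± 0.17 and -0.42 ± 0.11. These are correlations across 9 to 11 genes of a cluster, which share samples and, in HOXC, a start, and are given as a description. No cluster showed a change of order beyond the spread between samples (exact permutation tests, two-sided, p of 0.6, 1, 1 and 0.4 for HOXA to HOXD).

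**Figure D1:**
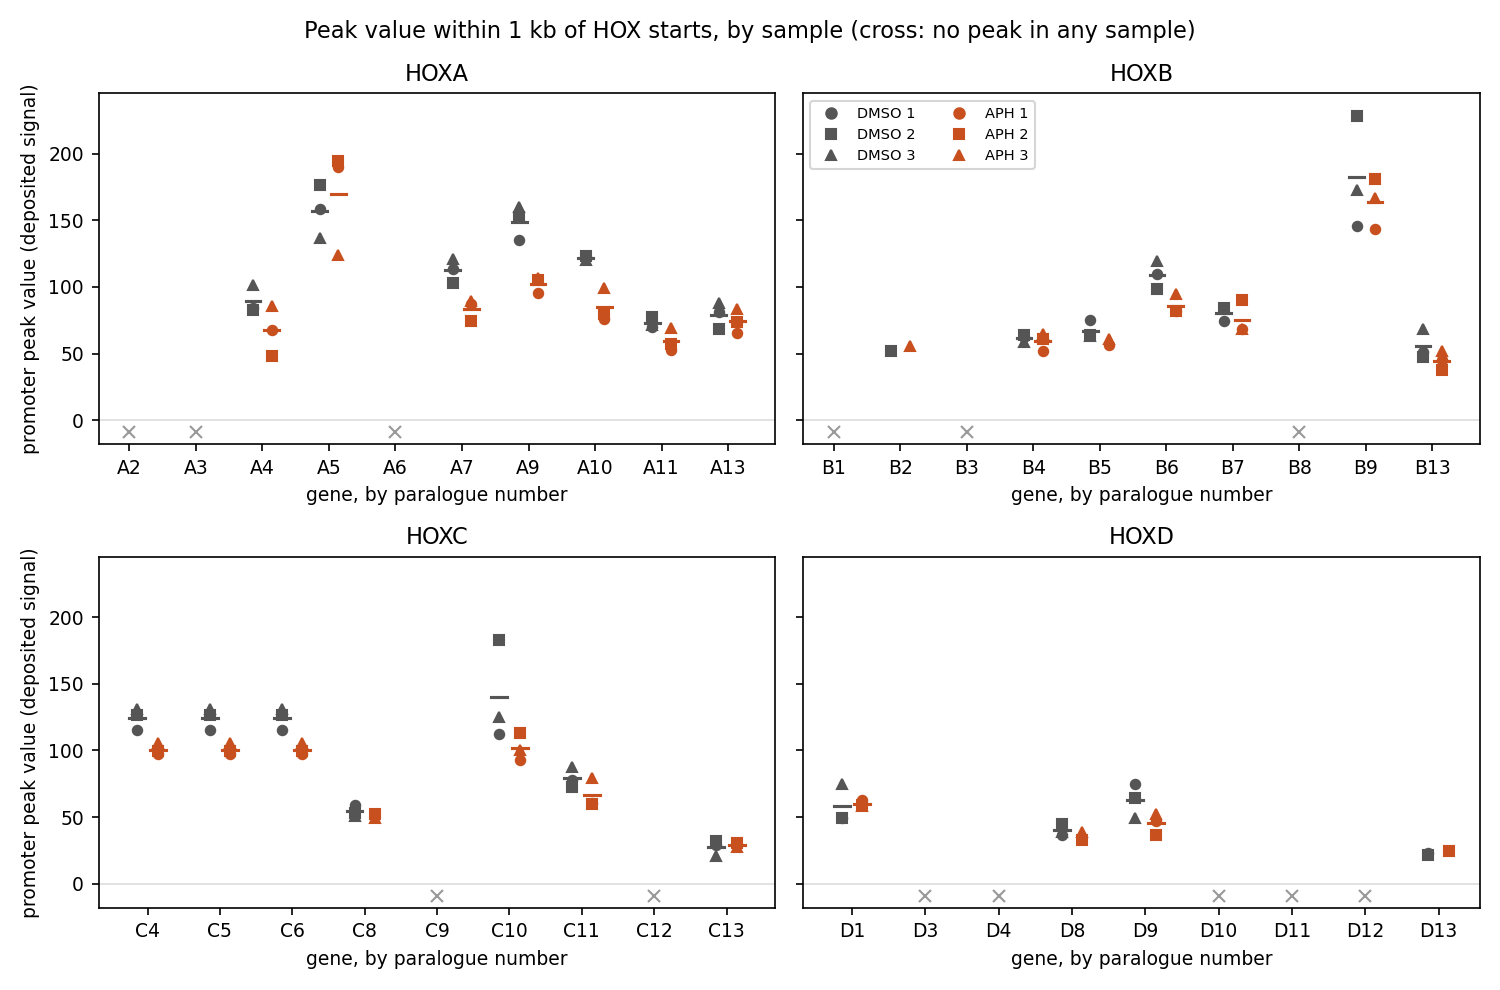
Peak value within 1 kb of HOX gene starts (y axis, deposited signal) in the 6 samples, with the genes of each cluster in paralogue order and a bar at the mean of a group with 3 values. HOXB9 and HOXA5 are the highest, and the 3 APH samples lie below the 3 DMSO samples at HOXA7, HOXA9, HOXA10, HOXA11, HOXB6 and the shared start of HOXC4, HOXC5 and HOXC6.

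The highest HOX promoter was that of HOXB9, a posterior gene of the trunk, with values of 146, 228 and 173 in DMSO and 143, 181 and 167 in APH. Its groups overlapped (log2 change -0.13, SE 0.16, adjusted p = 0.50, limma), and it stood at the 64.4th percentile of the 11117 promoters with a peak in every sample. HOXA5, a central gene with roles in lung and gut development, followed with 158, 176 and 137 in DMSO and 190, 194 and 124 in APH. Here 2 APH samples were above and 1 below all DMSO samples (log2 change 0.09, SE 0.17, adjusted p = 0.68, limma).

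In HOXB the next were HOXB6, with 109, 98.2 and 119 in DMSO and 81.6, 82.2 and 94.4 in APH, and HOXB7, with 74.6, 84.1 and 83.7 in DMSO and 68.2, 90.3 and 68.1 in APH. HOXB6 was lower in all 3 APH samples (log2 change -0.33, SE 0.13, adjusted p = 0.092, limma), while HOXB7 overlapped (log2 change -0.11, SE 0.15, adjusted p = 0.58, limma). With each sample centred on its own median over promoters, HOXB6 changed by -0.065 and the groups overlapped. The change of HOXB7 was -0.24 without APH 2 and -0.039 without APH 3. In HOXC the shared start of HOXC4, HOXC5 and HOXC6 had 115, 127 and 131 in DMSO and 97.0, 99.4 and 106 in APH, without overlap (log2 change -0.30, SE 0.12, adjusted p = 0.091, limma). HOXC10, a posterior gene active in the lumbar region and hindlimb, had 112, 183 and 125 in DMSO and 92.5, 113 and 100 in APH. These overlapped by a small margin (log2 change -0.43, SE 0.17, adjusted p = 0.095, limma). Without DMSO 2, the highest sample, the log2 change of HOXC10 was -0.22. In HOXD, both genes with a peak in every sample were weak. HOXD1, a hindbrain patterning gene, had 49.6, 49.5 and 75.0 in DMSO and 62.5, 59.4 and 58.0 in APH (log2 change 0.07, SE 0.18, adjusted p = 0.75, limma). HOXD9 had 74.5, 64.6 and 49.1 in DMSO and 47.1, 36.8 and 52.3 in APH (log2 change -0.45, SE 0.19, adjusted p = 0.11, limma). Both overlapped between the groups.

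The test across promoters called 2 HOX genes, HOXA9 and HOXA10, posterior genes known from blood formation and the uterus. HOXA9 had values of 135, 152 and 160 in DMSO and 95.6, 105 and 107 in APH. Its mean was 149 ± 12.5 (SD, n = 3) in DMSO and 102 ± 6.09 in APH, the groups did not overlap, and the log2 change was -0.53 (SE 0.12, adjusted p = 0.046, limma with Benjamini-Hochberg adjustment). HOXA10 had 122.4, 122.9 and 119.8 in DMSO and 75.7, 79.8 and 98.9 in APH. Its mean fell from 122 ± 1.65 to 84.8 ± 12.4 (SD, n = 3), also without overlap, with a log2 change of -0.53 (SE 0.14, adjusted p = 0.049, limma). Its start is shared with a readthrough gene of HOXA10 and HOXA9. Both calls rest on the values as deposited. With each sample centred on its own median over these promoters, HOXA9 was lower by a log2 change of -0.26 (adjusted p = 0.53, limma) and HOXA10 by -0.26 (adjusted p = 0.61, limma), with the groups still apart. Centred on the sample median over all regions instead, the HOXA9 peak changed by -0.51 (adjusted p = 0.17, limma on regions). At the HOXA10 peak the groups then overlapped. As deposited, neither promoter passed when any 1 sample other than APH 3 was left out. The fits without 1 other sample called no promoter in the series in either direction, and the fit without APH 3 called 4 HOX promoters (HOXA4 and HOXA7 beside these 2) and 2188 of all as lower.

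Among the 21 HOX promoters with a peak in every sample, 2 were called lower, a share close to the background, in which 880 of 11117 promoters were lower (7.92%). None was called higher, where 5 of all promoters were (0.045%), and 10 HOX promoters were lower and 0 higher at an unadjusted p under 0.05 (4490 and 59 of all). The groups did not overlap, with APH lower, at 8 of the 21, against 42.4% of all promoters. HOXC4, HOXC5 and HOXC6 share a start and a value, which is counted for each of them in the 21, the 8 and the 10. No HOX promoter was higher without overlap, against 0.756% of all. After centring on the sample median over promoters 2 of 21 were lower without overlap (HOXA9 and HOXA10), against 6.38% of all, and 2 were higher (HOXB4 and HOXC13), against 8.45% of all. The median log2 change was -0.30 over the HOX promoters, which is the change of the start shared by HOXC4, HOXC5 and HOXC6, and -0.26 over all 11117. Centring took the median of all promoters to 0.00 and that of the HOX promoters to -0.03.

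Across the clusters, peak number changed little. HOXA held 20, 22 and 22 peaks in DMSO and 18, 17 and 20 in APH (two-sided exact permutation p = 0.2). HOXB held 30, 26 and 29 against 28, 26 and 27 (p = 0.5, exact permutation test). HOXC held 14, 14 and 16 against 16, 16 and 17 (p = 0.3, exact permutation test), and HOXD 13, 13 and 12 against 12 in each APH sample (p = 0.4, exact permutation test). All 4 pairs of groups overlapped or touched. Summed over the clusters there were 77, 75 and 79 peaks in DMSO and 74, 71 and 76 in APH (p = 0.2, exact permutation test), in lists that were on average longer in APH.

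The mean value of the peaks separated the clusters more clearly. HOXA was the strongest, with means of 105, 104 and 111 in DMSO and 82.9, 79.3 and 89.8 in APH. HOXB had 79.3, 90.9 and 89.5 in DMSO and 67.4, 73.6 and 74.6 in APH, and HOXC 80.1, 96.8 and 88.7 against 65.6, 69.8 and 71.4. HOXD was the weakest, with 48.9, 48.4 and 50.1 in DMSO and 48.1, 45.0 and 47.9 in APH. In each cluster all 3 APH samples lay below the lowest DMSO sample (p = 0.1 each, exact permutation test, two-sided, and no design of 3 against 3 can give less). The group means were 107 ± 3.69 and 84.0 ± 5.32 in HOXA, but 49.1 ± 0.887 and 47.0 ± 1.78 in HOXD (SD, n = 3).

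Relative to the mean of all peaks of the same sample, the log2 value changed by -0.14 in HOXA (p = 0.2, exact permutation test), -0.06 in HOXB (p = 0.2), -0.15 in HOXC (p = 0.1) and 0.14 in HOXD (p = 0.2). Only in HOXC did the groups not overlap, with 0.03, 0.18 and 0.09 in DMSO and -0.08, -0.06 and 0.01 in APH. Among peaks no weaker than the overall median value, the change in HOXC was 0.019 and that in HOXD -0.046, so the direction of both turned with this threshold. With equal peak numbers the changes were -0.26 in HOXA, -0.12 in HOXB and 0.026 in HOXD. Without APH 2 that of HOXA was -0.080, and without APH 1 that of HOXB was -0.032. A comparison of 1 cluster with another within a sample needs no scaling for depth. The change of regions in general varied with level, however, as given further below, and HOXD was the weakest cluster. Whether the gaps to HOXD follow level was not tested. HOXA stood above HOXD by a log2 ratio of 1.10, 1.11 and 1.15 in DMSO and 0.78, 0.82 and 0.91 in APH. This gap narrowed by 0.28 without overlap (two-sided exact permutation p = 0.1, adjusted p = 0.2 over 6 pairs of clusters), and by 0.16 over regions with a peak in all 6 samples. HOXC above HOXD narrowed by a similar amount, from 0.85 ± 0.15 to 0.55 ± 0.096 (SD, n = 3; exact permutation p = 0.1, adjusted p = 0.2). Over regions with a peak in all 6 samples, however, HOXC against HOXD changed by -0.059 and the groups overlapped (exact permutation p = 0.6), and with equal peak numbers it changed by -0.17. HOXB relative to HOXC moved by 0.09, also without overlap (exact permutation p = 0.1, adjusted p = 0.2), and turned to -0.033 over regions found in all 6 samples. HOXB against HOXD (-0.20, exact permutation p = 0.2, adjusted p = 0.3, and -0.092 over regions with a peak in all 6 samples), HOXA against HOXB (-0.08, exact permutation p = 0.4, adjusted p = 0.48, and -0.14 with equal peak numbers, -0.021 without APH 2 and -0.031 without DMSO 1) and HOXA against HOXC (0.01, exact permutation p = 0.8, adjusted p = 0.8) overlapped. No pair passed after adjustment, and with 3 samples against 3 none could.

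**Figure D2:**
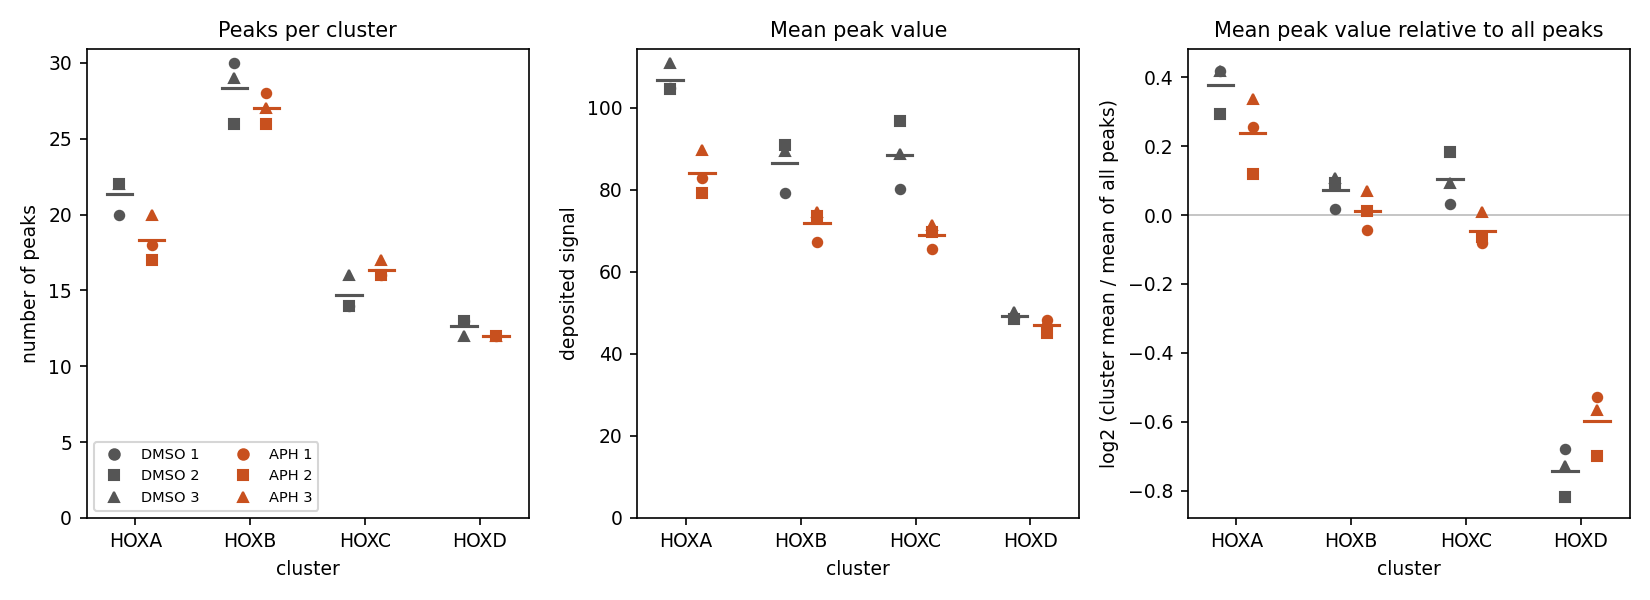
Number of peaks, mean peak value (deposited signal) and log2 of the cluster mean over the mean of all peaks (y axes) for each cluster in the 6 samples, with bars at group means. HOXA has the highest mean value in both groups and a lower one in APH, HOXD stays near 48 as deposited, and the relative values of DMSO and APH overlap in every cluster but HOXC.

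HOXA peaks also covered less sequence in APH. They covered 10.6 to 12.1 kb in the DMSO samples and 8.27 to 10.3 kb in the APH samples, without overlap (two-sided exact permutation p = 0.1). Its share of the length covered by all peaks had a mean of 0.0380% ± 0.0041 (SD, n = 3) for DMSO and 0.0290% ± 0.0047 for APH, but the groups overlapped by a small margin (exact permutation p = 0.2). Value multiplied by length, summed over its peaks, gave HOXA 0.0375%, 0.0338% and 0.0417% of the sum over all peaks in DMSO and 0.0249%, 0.0234% and 0.0335% in APH. The highest APH share lay just under the lowest DMSO share (p = 0.1, exact permutation test), a comparison chosen after the data were seen that does not depend on scaling. The shares of HOXB, HOXC and HOXD overlapped between the groups. HOXC covered more in APH, with 6.87, 6.74 and 7.10 kb in DMSO and 7.15, 7.49 and 7.41 kb in APH (p = 0.1, exact permutation test), but its share of the length covered by all peaks overlapped, with means of 0.0233% and 0.0232% (exact permutation p = 0.9). The APH lists as a whole covered 31.7 ± 1.56 Mb, against 29.7 ± 1.19 Mb for those of DMSO (SD, n = 3).

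Not every HOX peak was found in every sample. Of the 96 HOX regions, 54 (56.2%) had a peak in all 6 samples, 12 (12.5%) in DMSO samples only and 6 (6.25%) in APH samples only. In the whole series, 48.8% of regions had a peak in all 6 samples, 7.03% in DMSO only and 18.5% in APH only. HOXA had 5 DMSO-only regions and no APH-only region, HOXB 6 and 3, HOXC 0 and 3, and HOXD 1 and 0. Each of these 18 regions had a peak in 1 or 2 samples of its group, never in all 3, and the counts were not tested between clusters. The HOXC regions found in APH only were weak and lay upstream of HOXC11 and HOXC12, with values of 23.3 to 27.0.

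Of the 5 DMSO-only regions of HOXA, 4 lay between the starts of HOXA9 and HOXA10, 3 of them within 1 kb of the hairpin of MIR196B. This microRNA gene (chr7:27169480-27169563, minus strand) lies among the posterior HOXA genes, and its family is known to target HOX transcripts, HOXB8 among them. Its mature product shares its seed (bases 2 to 8, in capitals) with that of MIR196A1 in HOXB and MIR196A2 in HOXC, while that of MIR10A beside HOXB4 has another. The sequences are from RefSeq, GRCh38.p14.
hsa-miR-196b-5p: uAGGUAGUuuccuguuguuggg
hsa-miR-196a-5p: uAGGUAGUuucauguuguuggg
hsa-miR-10a-5p: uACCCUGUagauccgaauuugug

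Around MIR196B, the region chr7:27168414-27168650 had peaks of 131 in DMSO 1 and 133 in DMSO 2. The region chr7:27169697-27169980, which lies 134 bp from the hairpin, had 115 in DMSO 2 and 140 in DMSO 3, and chr7:27170177-27170376 had 122.7 in DMSO 3. Farther toward HOXA10, chr7:27173492-27173851 had 92.3 in DMSO 1 and 96.2 in DMSO 3, so each region had a peak in 1 or 2 of the 3 DMSO samples. No APH sample had a peak in these 4 regions. The second RefSeq start of HOXA10 (position 27174320) had a promoter value of 92.3, 100.9 and 100.1 in the DMSO samples and no peak within 1 kb in any APH sample. The DMSO 2 value came from the neighbouring region chr7:27172966-27173346, at the edge of this window, where APH 3 had a peak of 86.8 outside the window. The lists give values for called peaks alone, so the signal of the APH samples there is not known. The DMSO values are far above the weakest peaks of the lists, although other DMSO samples had no peak in the same regions. Beside them, at chr7:27167167-27167385, APH 1 had a peak of 88.0 and DMSO 3 one of 134. No region was found within 1 kb of the hairpins of MIR196A1, MIR196A2 and MIR10B, and MIR10A lay within 1 kb of the HOXB4 promoter region, which had a peak in every sample (62.7, 64.0 and 58.6 in DMSO, 52.1, 60.7 and 64.6 in APH).

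**Figure D3:**
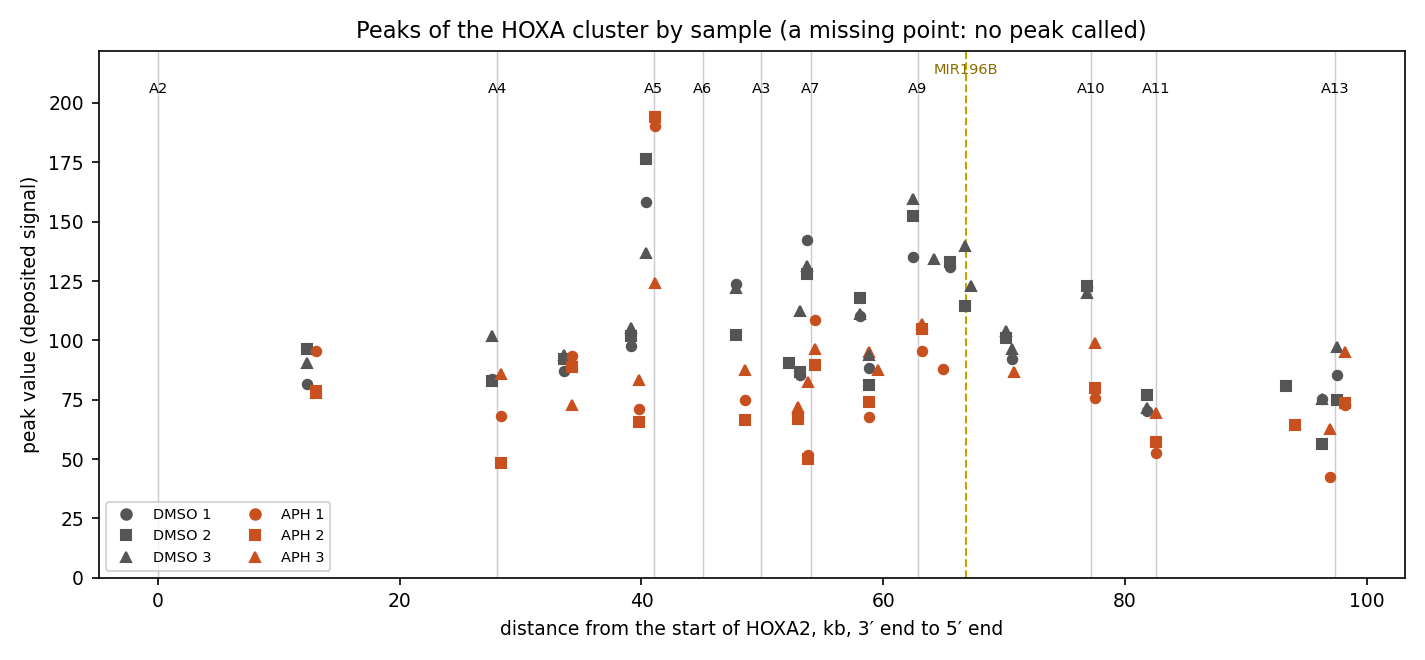
Value (y axis, deposited signal) of the merged HOXA regions from HOXA2 to HOXA13 in each sample against the distance from the start of HOXA2 in kb, with gene starts as grey lines and MIR196B as a dashed line. Between HOXA5 and HOXA10 the APH values are mostly below the DMSO values, and within 1 kb of MIR196B there are peaks in DMSO samples and none in APH samples; DMSO points are set slightly to the left and APH points slightly to the right of the region centre.

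The 54 HOX regions with a peak in every sample were compared one by one. With limma on log2(value + 1) none was called in either direction, nor was any of the 50150 regions of the series (0%). With sample numbers as a replicate block, 14 HOX regions were called lower and 0 higher, beside 5583 lower and 1021 higher of all regions. On simulated data the fit without a block did not recover changes as small as those of most HOX regions, so its lack of calls does not show that they stayed the same. At an unadjusted p under 0.05, 14 HOX regions were lower and 0 higher, whereas 5062 of all regions were lower and 1235 higher. The groups did not overlap, with APH lower, at 21 of 54 HOX regions, against 14.4% of all regions. APH was higher without overlap at 1 of 54, against 4.21% of all. With each sample centred on its median over regions, 11 of 54 were lower without overlap, against 11.4% of all, and 1 of 54 was higher, against 9.09% of all. The fitted change was below 0 at 46 of 54 HOX regions and at 29747 of the 50150 regions of the series. The median log2 change was -0.28 over the HOX regions and -0.06 over all regions. The median over all regions turned to 0.035 without DMSO 2 and 0.014 without APH 3, where that of the HOX regions was -0.26 and -0.34, and was -0.12 without APH 2. In HOXA 9 of 14 regions were lower without overlap and the median change was -0.44. In HOXB these were 9 of 21 and -0.28, in HOXC 1 of 11 and -0.26, and in HOXD 2 of 8 and -0.20. After centring the counts lower without overlap were 3 of 14 in HOXA, 5 of 21 in HOXB, 2 of 11 in HOXC and 1 of 8 in HOXD, so the higher count of HOXA holds for values as deposited.

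**Figure D4:**
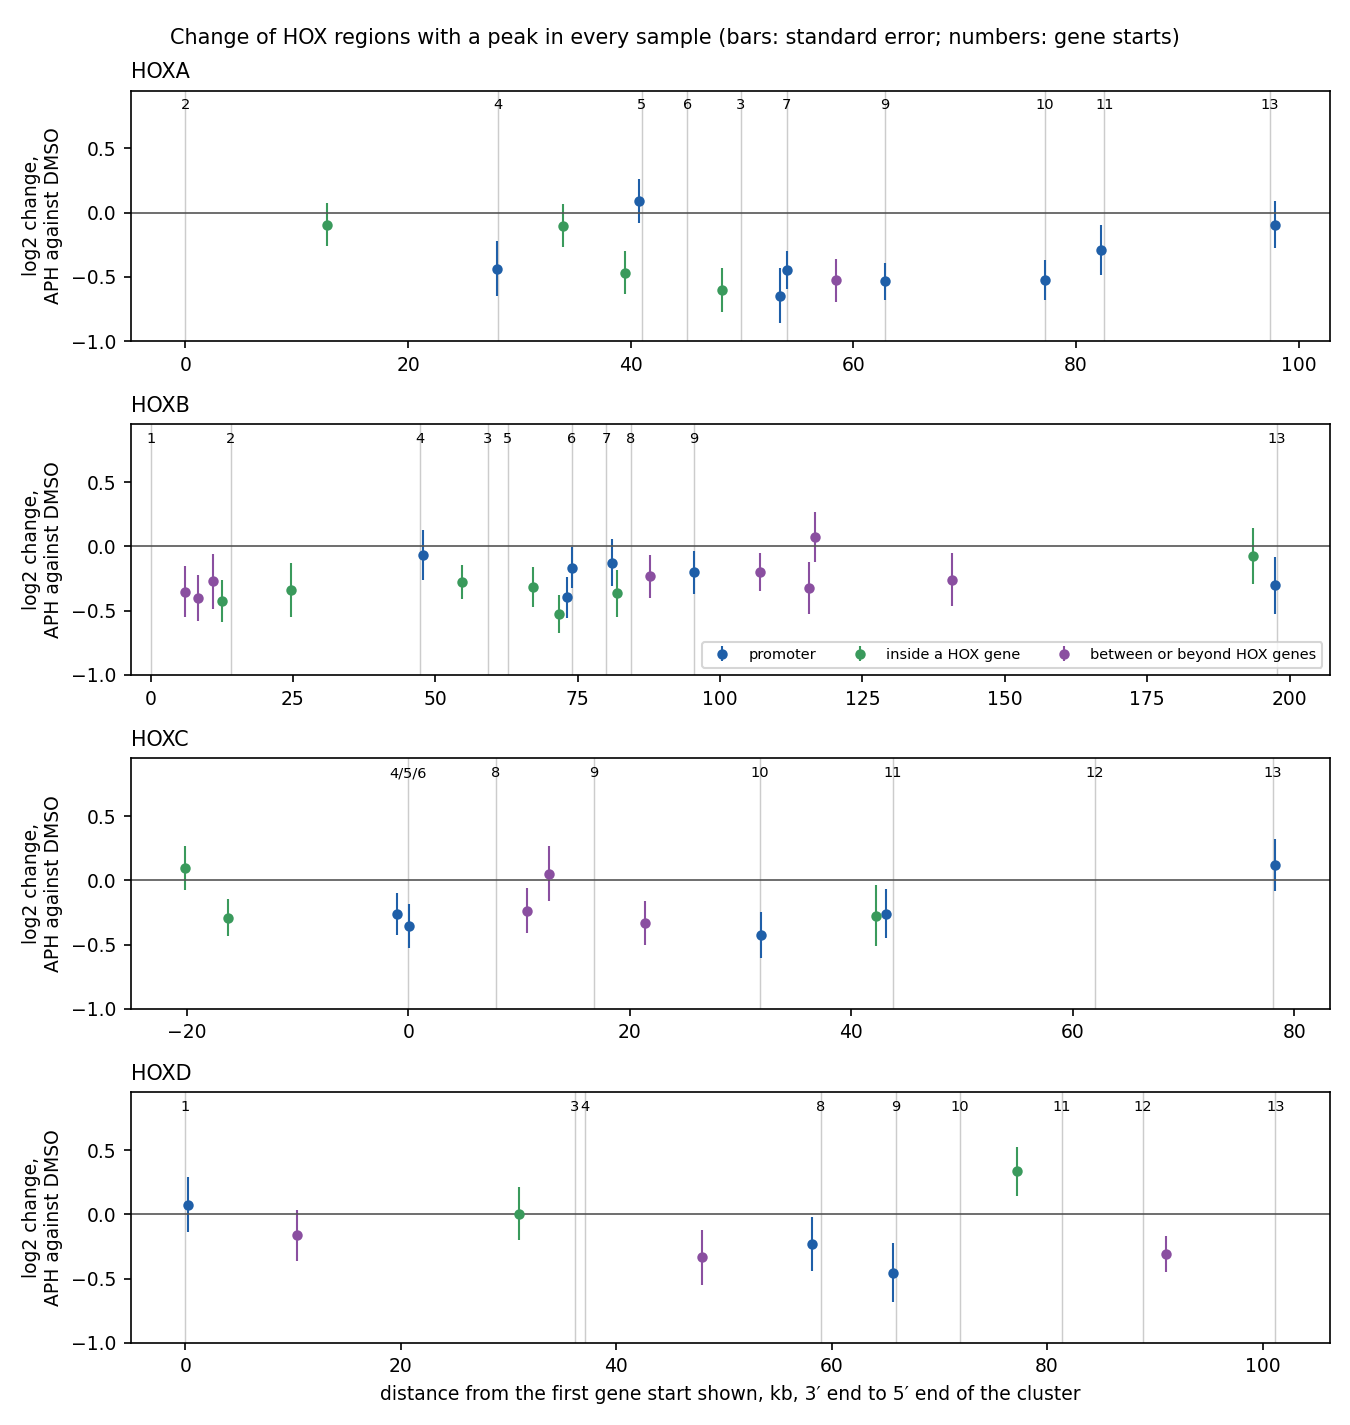
Fitted log2 change from DMSO to APH (y axis, bars are standard errors) of HOX regions with a peak in every sample (in HOXA those from HOXA2 to HOXA13) against the distance in kb from the first gene start shown, with gene starts as numbered lines and colours for position. From HOXA5 to HOXA10 the changes lie near -0.5 with HOXA5 itself at 0.09, and the highest of all is 0.33 inside HOXD11.

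The regions of lowest p were mostly in HOXA. The region at the HOXA9 start (chr7:27165349-27165671) is the promoter peak described above. Inside HOXA3, at its other start, chr7:27150281-27151454 had 124, 102 and 122 in DMSO and 74.8, 66.5 and 87.4 in APH. These did not overlap (log2 change -0.60, SE 0.17, unadjusted p = 0.0024, adjusted p = 0.29, limma), and the region also overlaps the antisense gene HOXA-AS3. Between HOXA7 and HOXA9, chr7:27160702-27161561 had 110, 118 and 111 in DMSO and 67.7, 73.9 and 95.2 in APH (log2 change -0.53, SE 0.17, adjusted p = 0.29, limma). At HOXA7, a central gene, the larger change was at chr7:27155878-27156363, with 85.5, 86.5 and 112 in DMSO and 51.6, 49.9 and 82.4 in APH (log2 change -0.65, SE 0.21, adjusted p = 0.29, limma). APH 3 was the highest APH sample in each of these 3 regions, and in all 3 it lay below every DMSO sample as deposited. After centring the groups overlapped in all 3.

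In HOXB the lowest p was inside HOXB6 (chr17:48602606-48602996), with 121, 139 and 122.9 in DMSO and 83.6, 91.8 and 89.2 in APH (log2 change -0.53, SE 0.15, adjusted p = 0.29, limma). In HOXC it was the HOXC10 start (chr12:53984818-53985369), given above. In HOXD it was chr2:176097206-176097997, upstream of HOXD12 and also the strongest region of the cluster. It had 128, 141 and 131 in DMSO and 104, 112 and 107 in APH (log2 change -0.31, SE 0.14, adjusted p = 0.38, limma). In these 3 clusters too the lowest p belonged to a region that was lower in APH, although the groups overlapped at HOXC10.

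A higher value without overlap was found at 1 HOX region, inside HOXD11 (chr2:176111254-176111658), with 27.1, 26.4 and 30.3 in DMSO and 34.5, 37.0 and 34.8 in APH (log2 change 0.33, SE 0.19, adjusted p = 0.50, limma). HOXD11 is a posterior gene of limb and kidney, and its start had no peak. The lowest p among fitted increases was at HOXA5 in HOXA, at the HOXC13 start in HOXC (chr12:53938427-53938781, 28.8, 31.9 and 21.1 in DMSO and 30.2, 30.4 and 27.5 in APH) and beyond HOXB9 in HOXB (chr17:48647372-48647867, 52.9, 64.1 and 68.5 in DMSO and 60.6, 71.5 and 62.8 in APH). All 3 overlapped.

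The HOX median stood apart from that of the series mainly outside promoters, in a comparison added later, with the data seen. Of the 54 regions, 23 lay within 1 kb of a protein-coding start and 31 did not. The median log2 change of the 23 was -0.29, against -0.25 over the 11241 promoter regions of the series. That of the 31 others was -0.28, against -0.00 over 38909 regions. The fitted change was below 0 at 26 of the 31, against 50.4% of all regions outside promoters. HOX regions outside promoters were also stronger than most, with a median log2 level of 6.45 against 5.82, and the change of regions in general varied with level. With regions ranked by level into 10 equal groups, those outside promoters changed by a median of -0.05 in the group that held the median HOX region and by -0.17 in the strongest group.

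Tested over the samples, the mean log2 value of the 31 HOX regions was 6.35, 6.43 and 6.44 in DMSO and 6.10, 6.18 and 6.22 in APH, without overlap (two-sided exact permutation p = 0.1). The same mean over the 38878 other regions outside promoters was 5.96 ± 0.18 (SD, n = 3) in DMSO and 5.97 ± 0.16 in APH (exact permutation p = 1). The difference between HOX and the others was 0.48, 0.26 and 0.59 in DMSO and 0.11, 0.06 and 0.41 in APH, a change of -0.25. Here the groups overlapped, since APH 3 with 0.41 lay above DMSO 2 with 0.26 (two-sided exact permutation p = 0.2). At promoters the HOX regions stood 0.63 below the other promoter regions in DMSO and 0.68 below in APH (SD 0.0065 and 0.051, n = 3; exact permutation p = 0.2). This change of -0.044 was -0.016 without APH 2 and turned to 0.052 with medians in place of means. By cluster, the HOXA promoter regions stood lower against other promoter regions in all APH samples, from -0.33 ± 0.021 to -0.47 ± 0.094 (SD, n = 3; exact permutation p = 0.1), and the other clusters overlapped.

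The regulators and partners of HOX genes were described by the same promoter fit, for lists chosen by function. Of 17 Polycomb genes, which silence HOX clusters, all had a peak in every sample and 4 were called lower and 0 higher (SUZ12, CBX8, JARID2 and PHC2), where 7.92% of all promoters were called lower, with a median log2 change of -0.37 beside -0.26 over all promoters. SUZ12, a core subunit of the complex that methylates H3K27, went from 117 ± 13.6 to 71.9 ± 2.96 (SD, n = 3; log2 change -0.69, adjusted p = 0.046, limma). CBX8, a chromodomain subunit that reads this mark, went from 236 ± 12.2 to 168 ± 15.2 (log2 change -0.49, adjusted p = 0.046, limma). None of the Polycomb calls, like no other promoter call, remained after centring, where SUZ12 changed by -0.42 and CBX8 by -0.22. Of 11 Trithorax and demethylase genes, which keep HOX genes active, 1 was called lower (RBBP5, a shared subunit of the methyltransferase complexes, log2 change -0.42, adjusted p = 0.0498, limma), again beside 7.92% of all promoters, and the median was -0.27. KMT2B changed by -0.29 (adjusted p = 0.082, limma).

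Of 9 genes for TALE cofactors, which bind DNA together with HOX proteins, 6 had a peak in every sample and 1 was called lower, which is 1 gene beside the 7.92% of all promoters. This was PBX3, from 243 ± 23.1 to 171 ± 16.1 (SD, n = 3; log2 change -0.50, adjusted p = 0.048, limma), followed by PKNOX1 (log2 change -0.39, adjusted p = 0.056, limma), and the median was -0.20. MEIS1 and PKNOX2 had no promoter peak and MEIS3 had one in 5 samples. Of 8 ParaHox and even-skipped genes, relatives of the HOX genes, only PDX1 and CDX2 had a peak in every sample, and both overlapped between the groups (log2 changes -0.08 and -0.09, adjusted p = 0.63 and 0.66, limma). Of 6 retinoic acid receptor genes, which relay a signal that switches on anterior HOX genes, 3 had a peak in every sample (RXRA, RXRB and RARG) and none was called. RXRB changed by -0.38 (adjusted p = 0.081, limma) and RXRA by -0.09 (adjusted p = 0.60, limma).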

How the data were processed

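ATAC-seq peak lists of 6 RKO samples, 3 DMSO and 3 APH, were used. Frozen cells were tagmented with Tn5, and reads were aligned with BWA 0.7.12 to hg38 per the submitters' processing notes, with duplicates removed. The authors deposited for each sample its own MACS2 2.1.0 peaks with a signal, the mean over the peak of coverage from alignments extended to 200 bp in 32-nt bins. No scaling to library size and no read totals are given, so depth is unknown, no counting interval can be given, and a depth difference would pass into the values. A shift of reads to the Tn5 cutting site is not mentioned in the methods.

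Genes and promoters were taken from RefSeq (GRCh38.p14), with strand for 19675 of 20037 protein-coding genes. A region or promoter (within 1 kb of the start) took the length-weighted mean of its peaks in a sample. Those with a peak in every sample were fitted across the whole table with limma 3.58.1 (R 4.3.3) on log2(value + 1) with a mean trend and Benjamini-Hochberg adjustment at 0.05. Values per sample were compared with two-sided exact permutation tests of the difference of means. The paper speaks of 3 independent experiments, and the labels do not tie sample numbers across conditions. Alternatives covered flanks, thresholds, overlap, scaling, pseudocounts, promoter size, a replicate block and each sample left out. Named were the 3 genes of highest promoter value and the regions of lowest p and highest value in each cluster, and the 2 genes of smallest p in each list. 1 gene of the rule is not reported here. Beyond the rule, called promoters, 3 further HOXA regions and the regions around MIR196B were chosen after their values were seen. The members and lists were chosen with earlier results of these data known. The fit was tested on simulated data. Python 3.11.15 with pandas 2.3.3, scipy 1.17.1 and matplotlib 3.10.9 was used.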

Additional observations from a re-analysis of the deposited data

How the results depend on the processing

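Of 646 recomputed values, 558 kept their direction and side of the threshold. With 3 samples against 3, no cluster value can pass 0.05, so its stability is one of direction. Peak number turned to -1.67 in HOXC and 0 in HOXD with peaks at or above the median value, to -0.333 in HOXC with equal peak numbers and to -0.000323 percentage points there as a share of all peaks, and was 0 in HOXB with flanks of 50 kb. The relative value turned to 0.019 in HOXC and -0.046 in HOXD with peaks at or above the median value and to -0.064 in HOXD as deposited. HOXA minus HOXC was -0.10 over regions with a peak in all 6 samples, -0.12 with equal peak numbers and -0.071 to 0.067 with 1 sample left out, HOXA minus HOXB ranged from -0.13 to -0.021 and the HOXB peak number from -2.50 to -0.500 in the same way, and HOXB minus HOXC was -0.033 over regions with a peak in all 6. HOX against other promoter regions was 0.052 with medians in place of means. The number of HOX promoters called lower, 2, was 0 with centring, quantile normalization, a peak in at least 3 samples, 500 bp or the highest peak, 4 with 2 kb, and 0 to 4 with 1 sample left out. Over all promoters the count of 880 lower was 0 in those 5 settings, 783 with 2 kb and 2188 without APH 3. The cause was not tested. Sample numbers were not taken as pairs, since the labels do not tie them across conditions. Deviations of the same number correlated by -0.0067, 0.477 and 0.515, and those of different numbers by -0.562 to 0.258. Numbers 2 and 3 may thus be paired, and the calls depend on this choice. With a replicate block 14 HOX regions and 10 HOX promoters were lower (5583 regions and 5906 promoters in all). None of the HOX members was higher, against 1021 regions and 74 promoters in all. Among single promoters, centring turned HOXA13 to 0.18, HOXB4 to 0.20, HOXB7 to 0.16, HOXB9 to 0.13 and HOXC11 to 0.0095, and quantile normalization HOXA13 to 0.13, HOXB4 to 0.11, HOXB7 to 0.11 and HOXB9 to 0.16, with its strongest region at 1.1e-05. HOXA5 was -0.084 with 2 kb. With 1 sample left out HOXA5 ranged from -0.024 to 0.30, HOXB4 from -0.13 to 0.020, HOXB9 from -0.28 to 0.039, HOXC13 from -0.045 to 0.24, HOXD1 from -0.025 to 0.27, HOXA4 from -0.63 to -0.22, HOXA13 from -0.19 to -0.0055, HOXB7 from -0.24 to -0.039, HOXB13 from -0.41 to -0.15, HOXC11 from -0.39 to -0.19, HOXC10 from -0.57 to -0.22, the HOXB9 region from -0.38 to -0.063, the region at the shared HOXC start from -0.47 to -0.17 and the region beyond HOXB9 from -0.031 to 0.15. The median change of the HOX regions stayed between -0.34 and -0.22 in all settings of the region fit.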
